A study of Mus musculus with 7 samples.

Results

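Necroptosis is a form of programmed cell death that is run by a small set of signalling proteins, and the 10 genes described here encode its core and the death receptor machinery that decides between survival, apoptosis and necroptosis. They are the sensor Zbp1, the kinases Ripk1 and Ripk3, the executioner Mlkl, the adaptors Tradd and Fadd, the initiator caspase Casp8, its catalytically inactive relative Cflar, and the ubiquitin ligases Birc2 and Birc3. The genes were chosen by name and pathway rather than by a measured value, though earlier results of these data were known. They are 10 of the 50686 genes in the deposited tables, and all 10 were among the 17559 genes that entered the test.

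Microglia, the resident macrophages of the brain, were isolated by flow cytometry from the forebrain of wild-type C57BL/6 male mice of Janvier 4 days after cerebral ischemia. Young mice (n = 4, libraries 14C, 18C, 23C and 29C) were 3 to 4 months old and old mice (n = 3, libraries 2posI, 3posI and 4posI) were 21 to 22 months old. All had ischemia, and none received a drug besides the anesthesia and analgesia of the surgery. At both ages CD11b and CD45 cells positive for Bodipy, a dye that stains the neutral lipid of lipid droplets, were taken, with 1 library per mouse. In its flow cytometry the paper gated microglia as CD11b-positive cells with low CD45. The mice carried no reporter that marks the origin of a cell, so a blood cell inside the gate would not be told apart. The age comparison asks whether lipid-laden microglia of old mice differ after stroke from those of young mice, and here it is read for the genes of cell death.

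In the pathway as it is generally described, TNF binding to its receptor recruits Tradd and Ripk1, and the ligases Birc2 and Birc3 attach ubiquitin to Ripk1, which keeps the complex in its NF-kB signalling form. When Ripk1 leaves the membrane it can join Fadd and Casp8, and Casp8 then starts apoptosis while Cflar sets its activity. When Casp8 is blocked, Ripk1 or Zbp1 engages Ripk3, which phosphorylates Mlkl so that Mlkl permeabilises the plasma membrane. Zbp1 binds Z-form nucleic acids and is itself induced by interferon. These steps run through protein modification, which transcript levels do not show.

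Libraries held 36574083 to 53002386 expected counts. Summed over 9 markers of microglia (among them Tmem119, P2ry12 and Sall1), the level was 7261 to 12132 TPM (the authors' per-length scale) in young mice, 7571 in 2posI, 8154 in 4posI and 3401 in 3posI. Summed over 7 markers of blood monocytes and macrophages (among them Ccr2 and Ly6c2), it was 66.0 to 179 TPM in young mice, 178 in 2posI, 149 in 4posI and 2043 in 3posI. The level of 6 markers of border-associated macrophages was 73.9 to 377 TPM in young mice, 305 in 2posI, 104 in 4posI and 1167 in 3posI. Markers of neutrophils summed to 13.1 to 307 TPM in young and 86.2 to 303 TPM in old mice, and markers of T and NK cells to 29.4 to 97.8 TPM in young and 121 (3posI) to 249.4 TPM (4posI) in old mice, with the T cell gene Cd3e at 0 to 0.02 TPM in young and 0 to 0.86 TPM in old mice. Markers of dendritic cells summed to 13.2 to 22.8 TPM in young and 27.8 to 46.6 TPM in old mice. Those of endothelial cells summed to 48.1 to 109 TPM in young and 33.4 to 44.4 TPM in old mice. As sums, these lists and the T and NK cell list did not overlap between ages, and neither did 14.1% of single genes on TPM. The T and NK cell sum was mostly Ccl5, with a mean of 63.4 TPM in young and 162 TPM in old mice. Every other gene of that list had a mean of 1.26 TPM or less at either age. Of its 8 genes, 6 had a log2 fold change above and 2 below 0. Of the 6 dendritic cell genes, 4 were above and 2 (Zbtb46 and Xcr1) below 0. Batf3, the highest of them, had a mean of 15.2 TPM in young and 16.6 TPM in old mice. The part of these markers in the results was not tested. By its microglia, monocyte and border-associated macrophage markers, old library 3posI stands apart from the other 6, and the main results for the 10 genes are also given without it. In bulk RNA of sorted cells, fewer cells of a type and less RNA per cell cannot be told apart.

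Promoter sequences from RefSeq on GRCm38.p6 were matched to 8 of the 10 genes, all but Zbp1 and Tradd, with 10 starts in all. They were searched on both strands for an ISRE-like motif of interferon-stimulated genes (GAAANNGAAA), a GAS-like motif of STAT factors (TTCNNNGAA) and a kappaB-like motif (GGGNNTTTCC), since both interferon and NF-kB signalling act on this pathway. Of 32851 promoters of the same length, 3.44% held the ISRE-like, 8.3% the GAS-like and 1.63% the kappaB-like letters. Matches lay in 2 of the 10 member promoters, both printed here 5′ to 3′ from 250 bases before to 30 bases after the start with the matched letters in capitals, and the promoter of Mlkl, which has the largest age difference of the 10 genes and no match, is shown beside them. In the downstream start of Ripk1 (chr13:34002624-34002903, + strand) GAS-like letters began 108 bases before the start, and a second GAS-like run from 11 to 3 bases before the start overlapped an ISRE-like run that began 5 bases before it. In Cflar (chr1:58711241-58711520, + strand) an ISRE-like run on the reverse strand spanned bases 7 to 16 after the start. The promoter of Mlkl is chr8:111338176-111338455 on the - strand.
Ripk1: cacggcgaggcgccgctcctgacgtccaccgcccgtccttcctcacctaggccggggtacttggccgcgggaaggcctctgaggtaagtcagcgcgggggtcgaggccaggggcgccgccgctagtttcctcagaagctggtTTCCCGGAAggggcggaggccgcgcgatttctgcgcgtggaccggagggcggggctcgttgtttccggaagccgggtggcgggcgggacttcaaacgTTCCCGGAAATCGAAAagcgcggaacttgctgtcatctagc
Cflar: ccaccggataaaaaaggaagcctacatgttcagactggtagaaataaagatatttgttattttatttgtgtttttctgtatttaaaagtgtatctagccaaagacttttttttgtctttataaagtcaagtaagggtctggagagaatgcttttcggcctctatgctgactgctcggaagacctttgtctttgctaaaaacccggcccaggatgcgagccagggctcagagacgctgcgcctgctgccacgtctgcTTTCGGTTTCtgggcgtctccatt
Mlkl: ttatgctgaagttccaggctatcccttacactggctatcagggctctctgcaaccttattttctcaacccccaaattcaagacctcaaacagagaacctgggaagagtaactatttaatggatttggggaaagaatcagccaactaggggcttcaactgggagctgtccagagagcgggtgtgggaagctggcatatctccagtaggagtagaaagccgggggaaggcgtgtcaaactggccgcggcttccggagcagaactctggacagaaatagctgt
These are matches of letters and not measured binding sites.

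The 10 genes covered a wide range of levels. On the TPM scale, the order in young mice was Cflar (96.5 ± 15.9, SD, n = 4), Casp8 (81.5 ± 5.88), Zbp1 (60.0 ± 26.5), Birc3 (45.6 ± 9.54), Tradd (35.3 ± 4.14), Ripk1 (23.1 ± 2.59), Ripk3 (14.2 ± 2.71), Birc2 (13.9 ± 1.93), Fadd (7.48 ± 0.82) and Mlkl (2.02 ± 0.87). From Cflar down to Tradd each gene's range over the young libraries overlapped that of the next, and so did those of Ripk3 and Birc2, whereas Tradd, Ripk1 and Ripk3 were separated from one another, as were Birc2, Fadd and Mlkl. Mlkl, the protein that carries out necroptosis, was thus the lowest of the 10 and Cflar and Casp8 were the highest. In old mice the order differed only at the top, with Zbp1 at 115 ± 34.5 TPM (SD, n = 3), Casp8 at 84.7 ± 2.78 and Cflar at 78.4 ± 21.7. Neighbours whose old ranges overlapped were Casp8 and Cflar, Birc3 and Tradd, Ripk1, Ripk3 and Birc2 in turn, and Fadd and Mlkl. Every old library held more Zbp1 (92.9 to 155 TPM) than Casp8 (82.8 to 87.9 TPM). The old ranges of Zbp1 and Cflar overlapped, and in 4posI Cflar exceeded Zbp1, with 103 against 98.0 TPM. In young mice Zbp1 exceeded Casp8 in 1 library of 4, 29C, with 98.5 against 86.3 TPM.

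**Figure D1:**
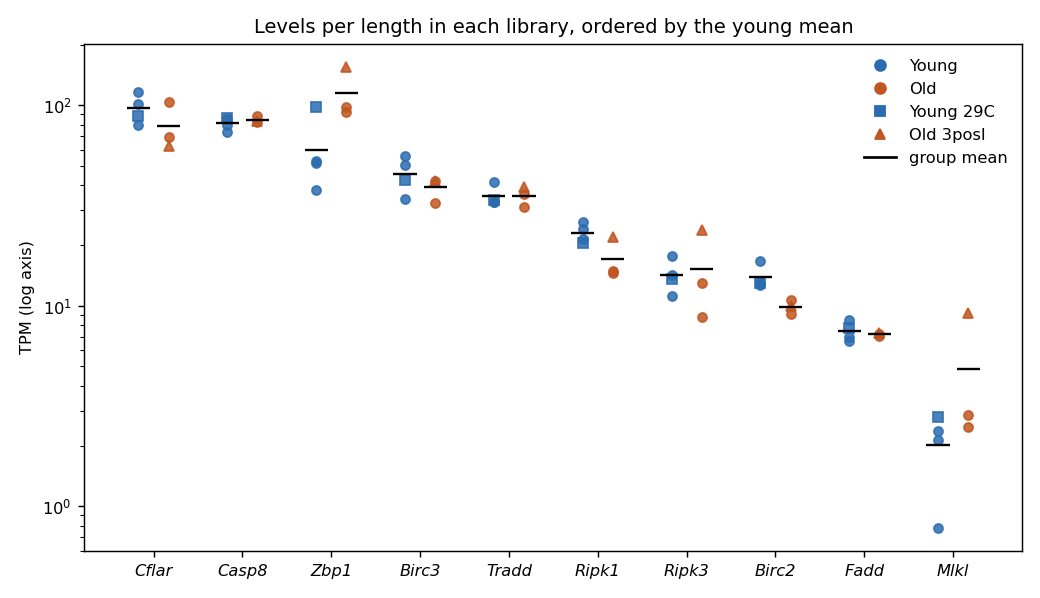
TPM (log axis) of each of the 10 genes in each library, with young libraries in blue and old libraries in orange, ordered by the young mean, and with black lines for group means. Squares mark young library 29C and triangles old library 3posI. By group mean, Zbp1 is in the third place in young mice (60.0 TPM) and the first in old mice (115 TPM). By library, it is also the highest gene in young library 29C, and it lies below Cflar in old library 4posI. Mlkl has the lowest mean at both ages (2.02 and 4.84 TPM).

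Old against young, 0 of the 10 genes were called on the counts (edgeR's quasi-likelihood test, adjusted p under 0.05), against 141 of the 17559 genes tested (0.803%). DESeq2 also called 0 of the 10, against 9.51% of the 14754 genes to which it gave an adjusted p, and limma-voom 0 of the 10, against 0.814% of genes. At an unadjusted p under 0.05 edgeR gave 2 of the 10, Mlkl and Zbp1, against 18.9% of all genes. Of the 10 genes, 6 had a log2 fold change above 0, against 48.8% of all genes, and 4 of the 10 had one when 3posI was left out. Counts scaled to library size by TMM factors (CPM) did not overlap between ages for 2 of the 10, Mlkl and Birc2, against 17.8% of all genes. For 10 genes these counts are near the background of all genes. The median log2 fold change was 0.08 over the 10 genes and -0.01 over all genes, and without 3posI it was -0.04 over the 10 and -0.02 over all, so the sign of the first rested on that library. With all 7 libraries the median size of the change regardless of sign was 0.23 over the 10 and 0.35 over all. For 8 of the 10 genes the log2 fold change was between -0.5 and 0.5.

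**Figure D2:**
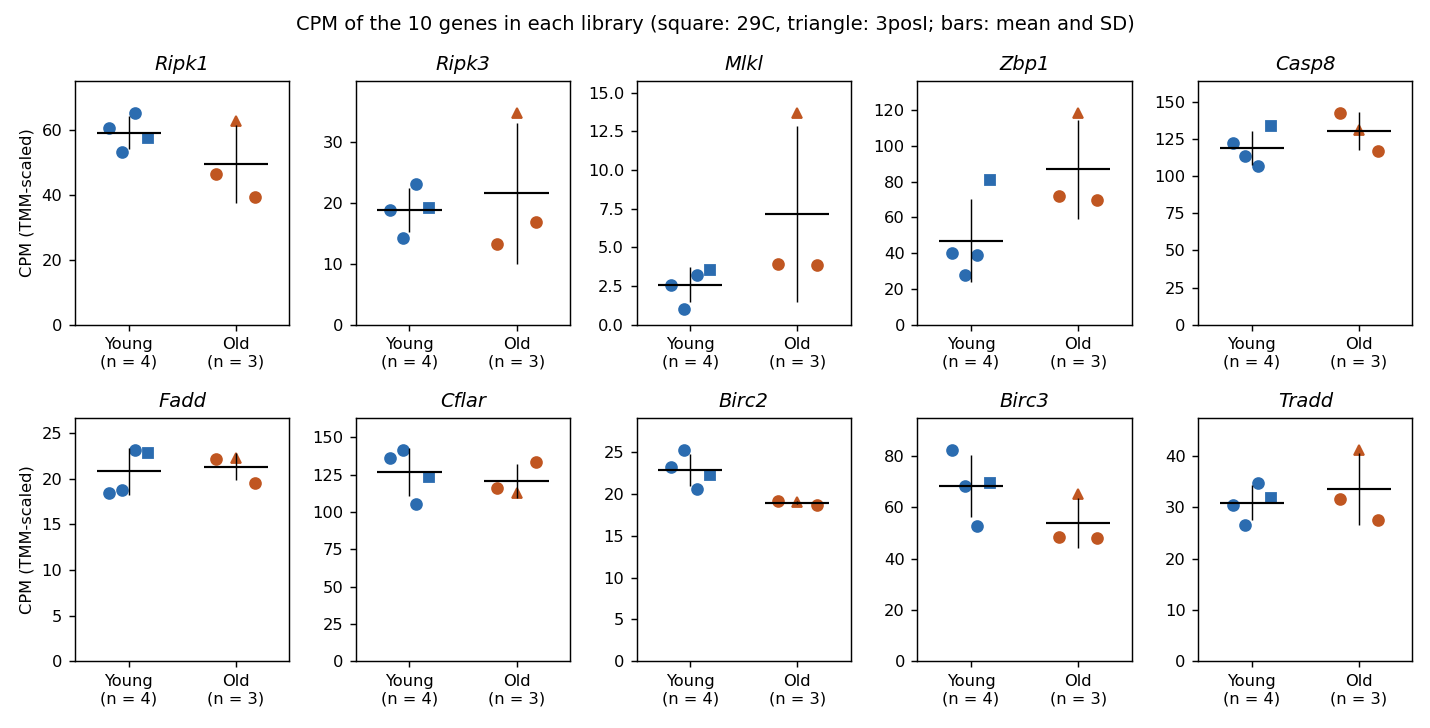
TMM-scaled CPM of each of the 10 genes in the 4 young (blue) and 3 old (orange) libraries, with the mean as a horizontal and the SD as a vertical line. Squares mark 29C and triangles 3posI. Mlkl and Birc2 do not overlap between ages, and 3posI is the highest old library for Ripk1, Ripk3, Mlkl, Zbp1, Fadd, Birc3 and Tradd.

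Zbp1 (chromosome 2, 173206612 to 173218923, GRCm38), the sensor that engages Ripk3 without a death receptor, had 40.1 (14C), 27.7 (18C), 39.1 (23C) and 80.8 CPM (29C) in young mice and 72.0 (2posI), 119 (3posI) and 70.0 CPM (4posI) in old mice. The old libraries lay above 3 of the 4 young ones, and young library 29C lay among them. Old against young, Zbp1 had a log2 fold change of 0.89 (SE 0.35, 95% interval 0.09 to 1.69, edgeR adjusted p = 0.222), or 1.85-fold. It was 0.60 without 3posI (edgeR adjusted p = 0.422) and 1.29 without 29C (edgeR adjusted p = 0.109). Zbp1 made up 10.1% to 24.2% of the summed TPM of the 10 genes in young mice and 24.2% to 34.1% in old mice.

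The level of Zbp1 across libraries followed that of interferon-stimulated genes. Summed over 11 such genes (Ifit1, Ifit2, Ifit3, Isg15, Irf7, Stat2, Usp18, Oasl2, Rsad2, Ifi44 and Bst2), the level was 871 (14C), 683 (18C), 825 (23C) and 1479 TPM (29C) in young mice and 1344 (2posI), 1770.02 (3posI) and 1537 TPM (4posI) in old mice. Young library 29C was thus high for both. The 3 genes with the pattern most like Zbp1, by Pearson's r of log2 CPM over the 7 libraries among 8145 genes with a mean of at least 10 CPM, were Isg15 (r = 0.997, Spearman's rho = 1.0), Ifi204 (r = 0.996, rho = 1.0) and Oas1g (r = 0.993, rho = 0.964). All 3 values stayed between 0.989 and 0.997 without 3posI, and between 0.993 and 0.997 without the 2 libraries farthest from the median of Zbp1. Of the 8145 genes, 112 had an r above 0.9, and all share the same 7 libraries and 2 ages. Isg15, a ubiquitin-like protein induced by interferon, had a log2 fold change of 0.93 (SE 0.33, edgeR adjusted p = 0.185).

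Mlkl (chromosome 8, 111311797 to 111338177), the executioner, had 2.60 (14C), 0.98 (18C), 3.22 (23C) and 3.53 CPM (29C) in young mice and 3.90 (2posI), 13.7 (3posI) and 3.86 CPM (4posI) in old mice, from 44 to 536 counts per library. Each old library lay above each young one, but 2 of the 3 old libraries exceeded the highest young one by little. The log2 fold change of 1.47 (SE 0.55, 95% interval 0.21 to 2.73, edgeR adjusted p = 0.206), or 2.77-fold, was 0.59 without 3posI (edgeR adjusted p = 0.536). Library 3posI was also the one in which the blood monocyte markers were at 2043 TPM. Their part in the level of Mlkl was not tested. On the TPM scale the ages overlapped, with 0.78 to 2.80 in young mice and 2.48, 9.17 and 2.86 in old mice.

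Ripk3 (chromosome 14, 55784995 to 55788865), the kinase that activates Mlkl, had 18.7 (14C), 14.3 (18C), 23.1 (23C) and 19.1 CPM (29C) in young mice and 13.2 (2posI), 34.7 (3posI) and 16.8 CPM (4posI) in old mice. Library 3posI was the highest of the 7, and the other old libraries lay in and below the young range. For Ripk3 the log2 fold change was 0.20 (SE 0.32, 95% interval -0.53 to 0.93, edgeR adjusted p = 0.777), and its sign turned to -0.33 without 3posI (edgeR adjusted p = 0.452).

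Ripk1 (chromosome 13, 34002363 to 34037147), the kinase shared by the survival and death complexes, had 60.7 (14C), 53.3 (18C), 65.3 (23C) and 57.6 CPM (29C) in young mice and 46.4 (2posI), 62.7 (3posI) and 39.3 CPM (4posI) in old mice. Of the 3 old libraries 2 lay below every young one, and 3posI lay within the young range. Ripk1 had a log2 fold change of -0.26 (SE 0.17, edgeR adjusted p = 0.432), or -0.47 without 3posI (SE 0.14, edgeR adjusted p = 0.147). Exons of Ripk1 share 511 bases with Gm17084 on the same strand and 241 bases with Serpinb6a on the opposite strand, and the libraries are not stranded. Gm17084 held 10.4 to 61.7 counts per library and Serpinb6a 1552 to 5197, against 1557 to 3328 for Ripk1.

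**Figure D3:**
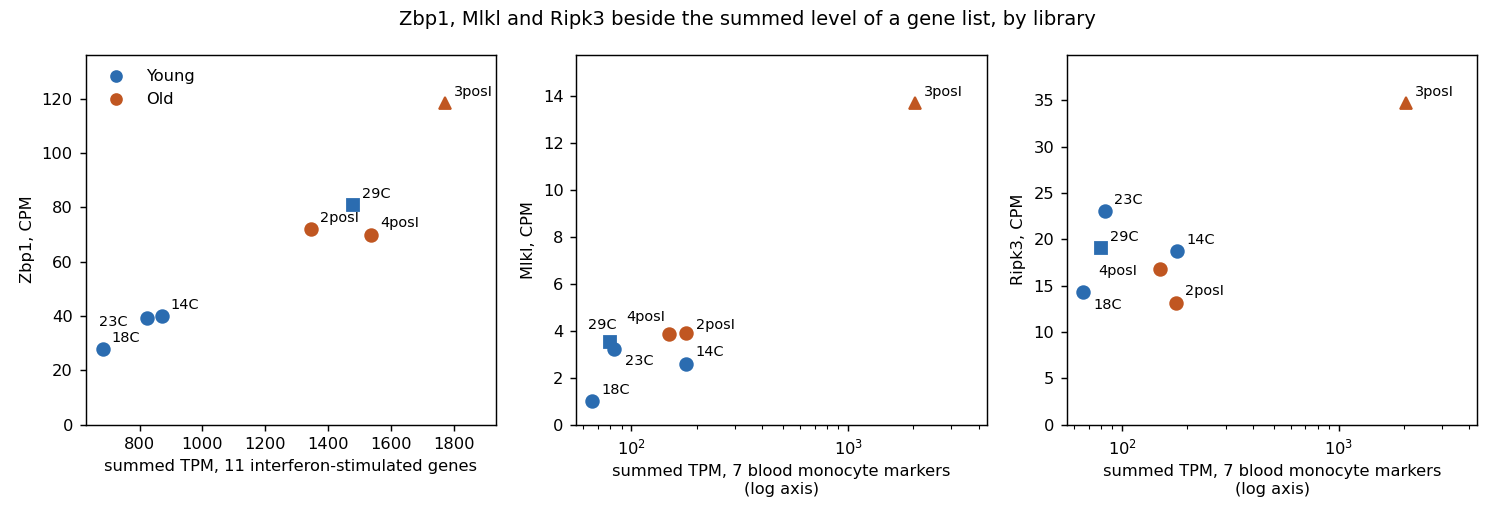
CPM of Zbp1 against the summed TPM of 11 interferon-stimulated genes, and CPM of Mlkl and of Ripk3 against the summed TPM of 7 blood monocyte markers (log axis), 1 point per library, with young libraries in blue and old ones in orange. Zbp1 is high in 29C and in the 3 old libraries, which are also those with 1344 TPM or more of interferon-stimulated genes, and 3posI, at 2043 TPM of monocyte markers, holds the highest Mlkl (13.7 CPM) and Ripk3 (34.7 CPM).

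Among the genes most like Mlkl by the same measure were Ly6a (r = 0.985, rho = 0.857), a surface antigen of the Ly6 family, and Psmd12 (r = 0.984, rho = 0.786), a subunit of the proteasome. For these 2 genes r was 0.960 and 0.973 without 3posI and 0.869 and 0.739 without the 2 libraries farthest from the median of Mlkl. Among those most like Ripk3 were Gch1 (r = 0.986, rho = 0.964), the first enzyme of tetrahydrobiopterin synthesis, 3110002H16Rik (r = 0.985, rho = 0.964) and Rai14 (r = 0.981, rho = 0.929). Of the 8145 genes, 240 had an r above 0.9 with Mlkl and 179 with Ripk3. Between members, r over the 7 libraries was 0.893 for Mlkl and Zbp1 (0.830 without 3posI) and 0.744 for Ripk3 and Mlkl (0.288 without 3posI).

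The adaptor Tradd (chromosome 8, 105258286 to 105264609), which links the TNF receptor to Ripk1, had 30.5, 26.6, 34.7 and 31.9 CPM in young libraries 14C, 18C, 23C and 29C and 31.7, 41.3 and 27.6 CPM in old libraries 2posI, 3posI and 4posI. All libraries but 3posI lay within the young range. The log2 fold change was 0.12 (SE 0.16, edgeR adjusted p = 0.738), and -0.06 without 3posI. The adaptor Fadd (chromosome 7, 144577318 to 144582463), which joins death receptors to Casp8, had 18.4, 18.7, 23.2 and 22.9 CPM in young and 22.2, 22.2 and 19.6 CPM in old libraries in the same order. The old libraries lay inside the young range, with a log2 fold change of 0.04 (95% interval -0.28 to 0.36, edgeR adjusted p = 0.912). The exons of Fadd share 239 bases with its antisense gene Faddos, which held 0 to 7.79 counts per library against 744 to 1183 for Fadd.

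Casp8, which starts apoptosis and by cleaving Ripk1 and Ripk3 holds back necroptosis, had 122, 113, 107 and 134 CPM in young libraries 14C, 18C, 23C and 29C and 143, 131 and 117 CPM in old libraries 2posI, 3posI and 4posI. Cflar had 136, 142, 106 and 123 CPM in young and 116, 112 and 133 CPM in old libraries in the same order. For both genes the ages overlapped. The log2 fold change was 0.13 for Casp8 (SE 0.13, 95% interval -0.16 to 0.42, edgeR adjusted p = 0.609) and -0.07 for Cflar (SE 0.14, 95% interval -0.38 to 0.24, edgeR adjusted p = 0.818). The genes lie 36489 bases apart on chromosome 1 (Cflar at 58711508 to 58758884 and Casp8 at 58795374 to 58847503, GRCm38). Per length, the ratio of Casp8 to Cflar in TPM was 0.688 to 0.971 in young mice and 1.27 (2posI), 1.33 (3posI) and 0.802 (4posI) in old mice, so that the ranges overlapped. Across the 7 libraries, Fadd and Cflar varied in opposite directions (r of log2 CPM = -0.903, rho = -0.857, and -0.899 without 3posI), the most negative r between any pair of members.

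The ubiquitin ligases Birc2 and Birc3, also known as cIAP1 and cIAP2, both had lower mean values in old mice. Birc2 had 23.2, 25.3, 20.6 and 22.3 CPM in young libraries 14C, 18C, 23C and 29C and 19.1, 19.0 and 18.7 CPM in old libraries 2posI, 3posI and 4posI. All 3 old libraries lay below all 4 young ones, with a coefficient of variation of 1.14% in old and 8.55% in young mice. On TPM the coefficient was 7.87% in old and 13.9% in young mice, so the closeness of the 3 old values held on CPM only. The log2 fold change was -0.27 (SE 0.12, 95% interval -0.55 to 0.01, edgeR adjusted p = 0.276) and between -0.31 and -0.21 with any 1 library left out. Birc3, which NF-kB itself induces, had 82.5, 68.2, 52.8 and 69.6 CPM in young and 48.3, 65.3 and 48.2 CPM in old libraries in the same order. Here 3posI and the young range overlapped, and the log2 fold change was -0.34 (SE 0.18, edgeR adjusted p = 0.340), or -0.50 without 3posI (edgeR adjusted p = 0.20). The 2 genes are neighbours on chromosome 9 (Birc2 at 7818227 to 7837064 and Birc3 at 7848699 to 7873186), 11634 bases apart, and are related in sequence. The expected counts of Birc3 were whole in 0 of 7 libraries and those of Birc2 in 1, as happens where reads are divided between genes, but those of Ripk1, Casp8 and Cflar were also whole in 0 of 7. With their counts added the log2 fold change was -0.32 (edgeR adjusted p = 0.30).

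**Figure D4:**
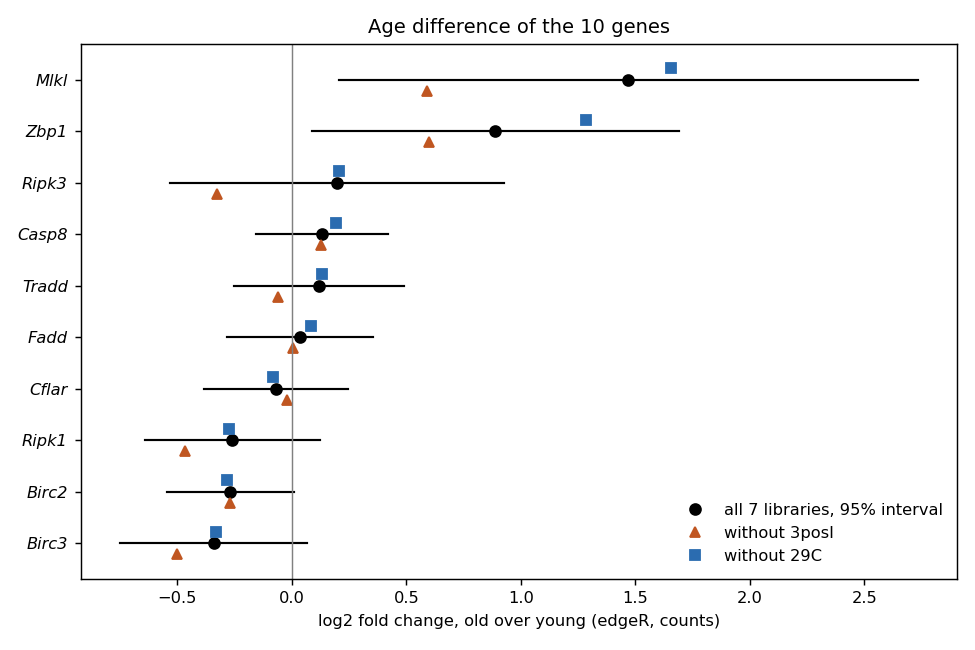
log2 fold change of old over young for each of the 10 genes by edgeR on the counts (black, with 95% intervals) and when 3posI (orange triangles) or 29C (blue squares) was left out. The intervals of Mlkl and Zbp1 lie above 0 before adjustment, Ripk3 and Tradd turn below 0 without 3posI, and the 4 lowest genes, Cflar, Ripk1, Birc2 and Birc3, stay below 0 in all 3 settings.

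On TPM, which also takes up differences in the length of the transcripts used, limma called 0 of the 10 at an adjusted p of 0.05, against 0.323% of 22885 genes. At an unadjusted p under 0.05 it gave 3 of the 10, Ripk1, Zbp1 and Birc2, against 15.3% of those genes. TPM did not overlap between ages for 1 of the 10, Birc2, against 14.1%. Birc2 had 12.7, 16.8, 13.05 and 13.03 TPM in young libraries 14C, 18C, 23C and 29C and 9.12, 9.92 and 10.7 TPM in old libraries 2posI, 3posI and 4posI. For Birc2 an exact two-sided permutation test on log2(TPM + 0.1) gave p = 0.0286, the smallest that 3 against 4 libraries allow and 1 of 10 such raw values. On log2 CPM the same permutation test gave p = 0.0571 for Birc2. The difference on the log2(TPM + 0.1) scale was -0.48 for Birc2 (SE 0.16, limma adjusted p = 0.213). It was -0.45 for Ripk1 (limma adjusted p = 0.279), 0.99 for Zbp1 (limma adjusted p = 0.201), 1.09 for Mlkl (limma adjusted p = 0.394, and 0.51 without 3posI) and 0.00 for Ripk3 (limma adjusted p = 1.00, and -0.38 without 3posI). The median log2 difference in TPM over all genes was -0.12, so these values are to be read relative to that shift.

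The effective length of a gene, which RSEM averages over the transcripts it assigns reads to, differed between ages without overlap for 1 of the 9 members with more than 1 length, Zbp1, against 19.3% of genes with a varying length. For Zbp1 it was 1057 to 1076 bases in young mice and 949 (2posI), 971 (3posI) and 1019 bases (4posI) in old mice. Zbp1 has 3 annotated transcripts of 770 to 3325 bases, and which of them the reads came from is an estimate of RSEM. Cflar, with 13 annotated transcripts, had 1753 to 1878 bases in young mice and 2047, 2275 and 1841 bases in old mice, which overlap. Its difference on the log2(TPM + 0.1) scale was -0.32 (limma adjusted p = 0.485), against -0.07 in counts.

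The genes around the 10 members were then read from lists of the same pathway. Of 5 death ligands, 3 were tested and 0 passed, with 2 higher and 1 lower in old mice. Tnfsf12, the ligand TWEAK, had a log2 fold change of 0.66 (SE 0.23, edgeR adjusted p = 0.179), Tnfsf10, the ligand TRAIL, had 0.07 (edgeR adjusted p = 0.913), and Tnf had -0.44 (SE 0.43, edgeR adjusted p = 0.615), or -0.20 without 3posI. Tnf was at 511 to 669 CPM in young mice and at 205 (2posI), 281 (3posI) and 844 CPM (4posI) in old mice, so the old libraries lay on both sides of the young ones.

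All 7 death receptors tested had a log2 fold change below 0 (median -0.24, and -0.57 without 3posI), and 0 passed. Tnfrsf21, also known as death receptor 6, came nearest, with 228 to 260 CPM in young mice and 159 (2posI), 142 (3posI) and 170 CPM (4posI) in old mice and a log2 fold change of -0.64 (SE 0.12, edgeR adjusted p = 0.0538). Tnfrsf1a, the main TNF receptor, had -0.24 (edgeR adjusted p = 0.493, and -0.46 without 3posI), and Tnfrsf10b, the mouse TRAIL receptor, had -0.75 (SE 0.46, edgeR adjusted p = 0.412) at a mean of 0.453 CPM in old mice.

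Of 22 proteins of TNF receptor complex I and its ubiquitin enzymes, 19 were tested, 9 had a log2 fold change above and 10 below 0, and 0 passed. The kinases Mapkapk2 (0.73, edgeR adjusted p = 0.0524) and Map3k7, also known as TAK1 (0.65, edgeR adjusted p = 0.0669), and the Map3k7 partner Tab1 (-0.52, edgeR adjusted p = 0.0798) had the smallest p. For each of the 3 the ages did not overlap in CPM, which a choice by p favours. Tab2, also a partner of Map3k7 and next by p, went the other way from Tab1 (0.64, edgeR adjusted p = 0.0972). Of the 19 genes, 3 had every old library above every young one and 2 below, against 17.8% of all genes without overlap. Map3k7 was at 12.4 to 15.4 CPM in young mice and 20.1 to 22.4 CPM in old mice, and Tab1 at 22.1 to 23.5 CPM in young mice and 15.1 to 16.6 CPM in old mice. Mapkapk2 phosphorylates Ripk1 in this complex and thereby limits its killing activity.

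Of 18 other regulators of necroptosis, 12 were above and 6 below 0 (median 0.14) and 0 passed. The chaperone Hsp90aa1, which stabilises Ripk1, Ripk3 and Mlkl, had 260 to 309 CPM in young mice and 418 to 446 CPM in old mice (log2 fold change 0.62, edgeR adjusted p = 0.0569). The membrane scaffold Flot1 had 0.53 (edgeR adjusted p = 0.225, and 0.20 without 3posI), and Eif2ak2, the RNA-activated kinase PKR, had 0.44 (edgeR adjusted p = 0.236). Another list is the leading edge of a necroptosis pathway from female mice, that is, genes selected there for higher values in old age, so a direction above 0 is not neutral for it. It held 11 genes, 4 of them members (Ripk1, Ripk3, Mlkl and Tradd). Of the 10 tested in male mice, 8 were above 0 (median 0.28) and 0 passed, and 6 were above 0 without 3posI (median 0.08).

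Of 18 effectors of apoptosis, 8 were above and 10 below 0 (median -0.07) and 0 passed. Bax, which opens the outer mitochondrial membrane, had a log2 fold change of 0.53 (SE 0.15, edgeR adjusted p = 0.123), Cycs, cytochrome c, had 0.44 (SE 0.14, edgeR adjusted p = 0.143), and Casp9, the caspase that cytochrome c activates, had -0.43 (SE 0.13, edgeR adjusted p = 0.133). For these 3 genes, taken for their small p, the ages did not overlap in CPM. Of the 18 effectors, 2 had every old library above every young one and 2 below, against 17.8% of all genes without overlap.

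**Figure D5:**
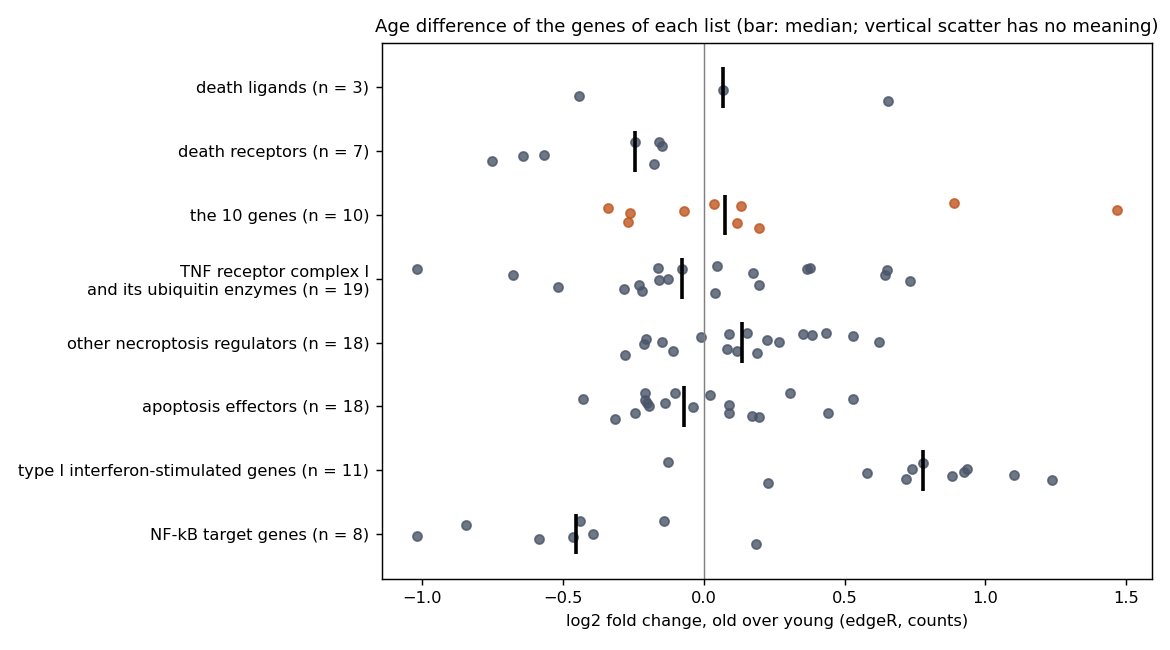
log2 fold change of old over young (edgeR on the counts) for each tested gene of 8 lists, with 1 point per gene and a black bar for the median of the list. The 10 members (orange) are centred near 0 with Mlkl and Zbp1 to the right, all 7 death receptors lie below 0, 10 of 11 interferon-stimulated genes lie above 0 and 7 of 8 NF-kB target genes lie below it.

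Interferon and NF-kB signalling are both known to act on these genes. Of the 11 interferon-stimulated genes, 10 had a log2 fold change above 0 (median 0.78, and 0.70 without 3posI) and 0 passed the adjusted threshold, with Bst2 at 0.72 (edgeR adjusted p = 0.128) and Rsad2 at 1.24 (edgeR adjusted p = 0.163, and 0.72 without 3posI) besides Isg15. Of 8 NF-kB target genes, 7 had one below 0 (median -0.45, and -0.65 without 3posI) and 0 passed, with Icam1 at -0.84 (edgeR adjusted p = 0.0801), Relb at -0.59 (edgeR adjusted p = 0.0979) and Nfkb2 at -0.44 (edgeR adjusted p = 0.168). Summed over the 8 genes, the level was 2131 to 2965 TPM in young mice and 1210 (2posI), 1185 (3posI) and 3314 TPM (4posI) in old mice. The list as a sum thus did not separate the ages, but most of that sum was Nfkbia (mean 1946 TPM in young and 1499 TPM in old mice). Gene by gene in CPM, 4 of the 8 had every old library below every young one and 0 above, against 17.8% of all genes without overlap in either direction. Tnfaip3, 1 of the 4, separated narrowly, with 666 CPM in 4posI against 670 CPM in young library 23C.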

How the data were processed

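Polyadenylated RNA of microglia from 7 mice, each with its own animal code, was sequenced after Smart-seq2 amplification without strand. FastQC 0.11.5 served the authors for read quality, STAR for alignment to GRCm38 and RSEM for quantification of GENCODE m15 genes. The STAR version and the RSEM version were not given in the sources used here. Per the labels a PureLink kit served for the RNA, and per the methods a PicoPure kit. Deposited were expected counts without normalization, TPM values, which are scaled per length within each library, and an effective length per gene in bases. The deposited FPKM values were not used.

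For the tests, each expected count was rounded. Following the filter of the study, 18173 genes exceeded an expected count of 10 in 1 library or more, and those of chromosomes X, Y and M were then removed. The remaining 17559 genes were fitted with age as the only term by edgeR 4.0.16 (TMM factors 0.952 to 1.05, quasi-likelihood test, biological coefficient of variation 37.2%) in R 4.3.3, with Benjamini-Hochberg adjustment over all of them and a threshold of 0.05. Gene positions came from GENCODE vM21. TPM was tested with limma 3.58.1 on log2(TPM + 0.1) over 22885 genes with at least 0.1 TPM in 1 library. On that scale the change of low genes is understated. Exact permutation tests enumerated all splits of 3 against 4 libraries. Alternatives were DESeq2 1.42.0, limma-voom with and without quality weights, other factors and filters, an effective-length offset and each library left out. Whole counts were called within 0.001. No molecular identifiers are named, so PCR copies of 1 molecule may be counted separately.

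The 10 genes, the pathway and marker lists and the motifs were chosen with earlier results of these data known. The list from female mice, taken by gene name only from the study's supplement, was selected there for higher values in old age and is not independent evidence of direction. All members are named, and from each list every gene past the threshold or otherwise the 3 with the smallest p. Tab2 is named besides, as a further partner of Map3k7. For Zbp1, Mlkl and Ripk3 the 3 genes of highest r were taken, of which 1 for Mlkl, like 1 gene of the microglia list and 1 of the interferon list, is not reported here.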

Additional observations from a re-analysis of the deposited data

Results flagged for a closer look

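Among 49 sets of 4 young values (CPM, TPM and effective length of each member and summed TPM of each list), 4 had 1 library farther from the others than Dixon's 95% critical value for 4 values, and chance flags about 1 set in 20. In Birc2, TPM was 16.8 in young library 18C and 12.7 to 13.1 in the other 3 (gap over range 0.924). In Tradd, TPM was 41.5 in young library 23C and 33.1 to 33.5 in the other 3 (0.947). Neither gene met the same rule in CPM. The summed TPM of blood monocyte markers was 179 in young library 14C and 66.0 to 83.4 in the other 3 (0.847), and that of neutrophil markers was 307 in young library 29C and 13.1 to 43.6 in the other 3 (0.896). Library 29C is the young library with the highest Zbp1, and the part of the neutrophil markers in that level was not tested. Groups of 3 old libraries were not tested by this rule.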

How the results depend on the processing

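Under every alternative run, 0 of the 10 members passed the adjusted threshold by counts or TPM, and 0 (without 14C, where 13.7% of all genes did) to 4 (quality weights, 19.9%) had an unadjusted p under 0.05 on counts. The number of all genes past it went from 141 to 1403 with DESeq2, 304 with quality weights, 213 with the effective-length offset, 288 without a filter on low counts, and 1 to 159 with 1 library left out (1 without 14C, 18C or 2posI, 2 without 29C, 14 without 23C, 85 without 4posI). With each library left out, a choice made after seeing the data, 4 to 6 members were above 0, and 2 to 4 members did not overlap between ages, 4 of them without 3posI (Birc2, Birc3, Mlkl and Ripk1). Fewer libraries separate more easily, and the shares of all genes with a library left out were not computed. These counts are therefore not read as a result about the members. Signs turned in 5 of 162 member values on counts. Ripk3 was -0.069 with quality weights and -0.33 to 0.453 with 1 library left out (below 0 without 3posI), Tradd -0.059 (without 3posI) to 0.237, and Fadd -0.011 to 0.094 (below 0 without 14C or 18C). On TPM they turned in 9 of 90, with Ripk3 at -0.384 to 0.333 with 1 library left out, Fadd at -0.10 to 0.015 and Tradd at -0.071 to 0.099. Zbp1 stayed between 0.60 and 1.29 and Mlkl between 0.59 and 1.77 on counts. The effective-length offset moved Birc3 from -0.34 to -0.13. No paired analysis was possible because the groups share no replicate numbers. Causes were not tested.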
